A study of Mus musculus with 6 samples.

Results

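The insulin-like growth factor genes described here were 10 genes named by symbol: the ligand Igf1, the receptors Igf1r and Insr, the receptor substrates Irs1 and Irs2, and the binding proteins Igfbp2, Igfbp3, Igfbp4, Igfbp5 and Igfbp7. All 10 were found, each in 1 row, among 27366 features, and all 10 passed the filter on low values. The cells were satellite cells, the resident stem cells of mouse skeletal muscle, and bulk RNA was sequenced at day 4 of growth culture in medium with 20% fetal bovine serum and basic FGF. The labels put 3 libraries in an Islr knockout group (genotype ko) and 3 in a control group, both without strain, sex, age or the allele used, and the series design speaks of sorting by flow cytometry on whether Islr was present. Whether libraries of 1 group stem from separate mice or cultures is unstated, and the spread behind each p-value may thus be technical in part.

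IGF1 and IGF2 are secreted hormones that bind the IGF1 receptor, a tyrosine kinase closely related to the insulin receptor. The activated receptors phosphorylate IRS adaptor proteins, which recruit PI3-kinase and feed the Akt and mTOR branch of growth signalling, while Shc and Grb2 link the same receptors to Ras and ERK. Secreted IGF-binding proteins hold the ligands outside the cell and can limit or prolong their action, and proteases such as PAPP-A release the ligands again. In muscle the system is known for driving both myoblast proliferation and differentiation, and Igfbp5 is known as a gene of differentiating myoblasts.

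Values are reads divided by 1 size factor per library, called scaled reads, and levels of different genes are compared only per length, as the authors' FPKM (fragments per kilobase, scaled to the library's size). Library totals ran from 16456917 to 20531276 reads. The satellite cell and myoblast list was detected in full, with Pax7 at 1233 to 2729 and Myod1 at 18888 to 33818 scaled reads over the 6 libraries. Islr itself did not separate the labels: scaled reads of it were 256.7, 7.4 and 10.9 for libraries labelled Islr knockout 1, 2 and 3, against 181.1, 12.8 and 1579 in those labelled control 1, 2 and 3. Islr was therefore higher in the library labelled Islr knockout 1 than in 2 control libraries, and knockout and control below mean the label only. Which part of the gene was deleted was not stated. Differentiation also differed between libraries of 1 label. Myog, the transcription factor that marks it, stood at 37228, 1998 and 5737 in libraries labelled knockout and at 43370, 417.2 and 43261 in those labelled control. The muscle genes Myh3, an embryonic myosin, and Ckm, muscle creatine kinase, were likewise lowest in both libraries of number 2 (1190 and 226.1 for Myh3, 34.1 and 1.2 for Ckm, in knockout and control). Libraries of the same number resembled each other, as their deviations from the group means correlated at 0.689, 0.633 and 0.625 over 14280 genes, so values are also given within these pairs.

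By mean FPKM, the binding proteins were the most abundant members and Igf1 the least, in all 6 libraries for Igf1. Single libraries departed from this order for the binding proteins. In Islr knockout 1, Igfbp4 (5.12) was below all receptors and substrates, and Igfbp2 (9.34) below Igf1r and Irs1. In control 1 and control 2, Igfbp4 was below Igf1r. Mean FPKM over the 6 libraries was 140 for Igfbp5, 117 for Igfbp7, 105 for Igfbp2, 90.8 for Igfbp3 and 20.2 for Igfbp4. The receptors and substrates followed, with 8.91 for Igf1r, 6.92 for Irs1, 3.91 for Insr and 3.83 for Irs2, and Igf1 had 0.632. The ranges over libraries were wide for the binding proteins (23.9 to 329 FPKM for Igfbp5, 31.1 to 282 for Igfbp7, 9.34 to 265 for Igfbp2, 29.7 to 234 for Igfbp3). Those of the receptors and substrates were narrower (7.46 to 10.2 for Igf1r, 2.57 to 6.14 for Insr, 2.90 to 5.41 for Irs2). In this order the ranges of neighbours overlapped at every step but the last, where Igf1 (0.0338 to 2.09) lay below Irs2. FPKM depends on the length the authors assigned, and so does the order above. This length equalled the listed one for Irs1 and Irs2 and was shorter for all other members. For Igfbp2 it came to 1307 bases against a listed length of 3204, and for Igfbp5 to 6006 against 10287.

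The upstream sequences of the binding protein genes are shown for the members that the comparison of the groups turns on, Igfbp5 and Igfbp7, for Igfbp4, which holds the 1 TATAAA match, and for Igfbp2, the neighbour of Igfbp5. Igfbp2 (ENSMUSG00000039323; chromosome 1, 72824503 to 72852474, plus strand) and Igfbp5 (ENSMUSG00000026185; chromosome 1, 72857932 to 72874884, minus strand) lie tail to tail, 5.46 kb apart. All coordinates are on GRCm38. Each sequence is the 250 bases before the gene's RefSeq start (RefSeq, GRCm38.p6), 5′ to 3′ on the gene's own strand. The windows are chr1:72874866-72875115 on the minus strand for Igfbp5, chr5:77408046-77408295 on the minus strand for Igfbp7, chr11:99040994-99041243 on the plus strand for Igfbp4 and chr1:72824230-72824479 on the plus strand for Igfbp2. Capitals mark a match to TATAAA, searched on its own strand.
Igfbp5: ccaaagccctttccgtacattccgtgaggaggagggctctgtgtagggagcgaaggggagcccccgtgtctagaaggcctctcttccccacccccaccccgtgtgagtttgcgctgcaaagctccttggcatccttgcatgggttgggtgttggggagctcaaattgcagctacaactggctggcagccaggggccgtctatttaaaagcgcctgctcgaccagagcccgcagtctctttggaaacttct
Igfbp7: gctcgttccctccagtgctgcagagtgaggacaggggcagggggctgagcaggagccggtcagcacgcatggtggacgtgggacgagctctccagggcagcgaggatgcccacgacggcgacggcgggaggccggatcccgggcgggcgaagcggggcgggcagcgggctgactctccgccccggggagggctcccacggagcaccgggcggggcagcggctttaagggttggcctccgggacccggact
Igfbp4: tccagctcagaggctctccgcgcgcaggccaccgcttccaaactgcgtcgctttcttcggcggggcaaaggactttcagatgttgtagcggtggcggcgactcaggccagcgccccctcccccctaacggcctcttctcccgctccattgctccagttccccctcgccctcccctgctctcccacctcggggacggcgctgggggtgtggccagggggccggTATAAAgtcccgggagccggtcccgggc
Igfbp2: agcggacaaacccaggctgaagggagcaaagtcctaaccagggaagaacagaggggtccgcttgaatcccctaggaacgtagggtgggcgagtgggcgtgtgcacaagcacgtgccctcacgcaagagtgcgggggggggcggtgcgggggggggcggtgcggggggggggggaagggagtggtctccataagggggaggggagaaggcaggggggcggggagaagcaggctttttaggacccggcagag
Of the members, 9 had an entry, with 10 start sites in all. TATAAA stood in 1 of these 10 windows, that of Igfbp4, beginning 28 bases before the start, and in 7.59% of all 32851 promoter windows of this length. CAGCTG, an E-box of the kind myogenic factors bind, stood in 1 window, 157 bases before the start of Igf1 in a window that lies wholly in annotated exons, and in 13.0% of all windows. The FoxO-type motif TGTTTAC, searched on both strands, stood in 0 windows of the members and 3.17% of all. These matches describe the letters and no binding was measured. GC content was 58.8% for Igfbp5, 74.0% for Igfbp7, 69.2% for Igfbp4 and 67.2% for Igfbp2, against a median of 52.4% over all windows.

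The comparison asked whether these genes differed in level between libraries labelled Islr knockout and control; since Islr does not follow the labels, it compares the labels only. Igfbp5 and Igfbp7 had the largest positive log2 fold changes among the members, 1.08 each, and Igfbp3 the most negative, -0.47. By limma, a linear model fitted to log2(scaled reads + 1) over 20344 genes, 0 of 10 members passed an adjusted p of 0.05, as did 0 genes in all (0.0%). At an unadjusted p under 0.05 the count was 0 of 10 members against 276 genes (1.36%), of which 1.15% were higher and 0.211% lower in knockout. On the recovered reads, edgeR and DESeq2 also called 0 members and 0 genes (0.0% each). At an unadjusted p under 0.05, edgeR had 0 members (1.14% of genes) and DESeq2 had 1, Igfbp7 (1.17% of genes). A block for the replicate number left limma at 0 members and 0 genes (0.0%). In that fit 2 of 10 members had an unadjusted p under 0.05, Igfbp5 and Igfbp7, both higher in the libraries labelled knockout, against 4.59% of all genes, 3.66% higher and 0.924% lower. The same 2 members stood there in edgeR (4.28% of genes) and DESeq2 (2.61%) with the block, where edgeR called 0 genes (0.0%) and DESeq2 called 13 (0.0475%), 0 of them members. The groups overlapped for each of the 10 members, whereas 2.65% of all genes were higher and 2.11% lower in every library labelled knockout than in any labelled control. Igfbp5 was the 1 member with the same direction in all 3 pairs, higher in knockout each time, against 12.2% of all genes. Log2 fold changes were above 0 for 8 of 10 members (53.0% of all genes), with a median of 0.22, beside 0.03 over all genes tested.

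**Figure D1:**
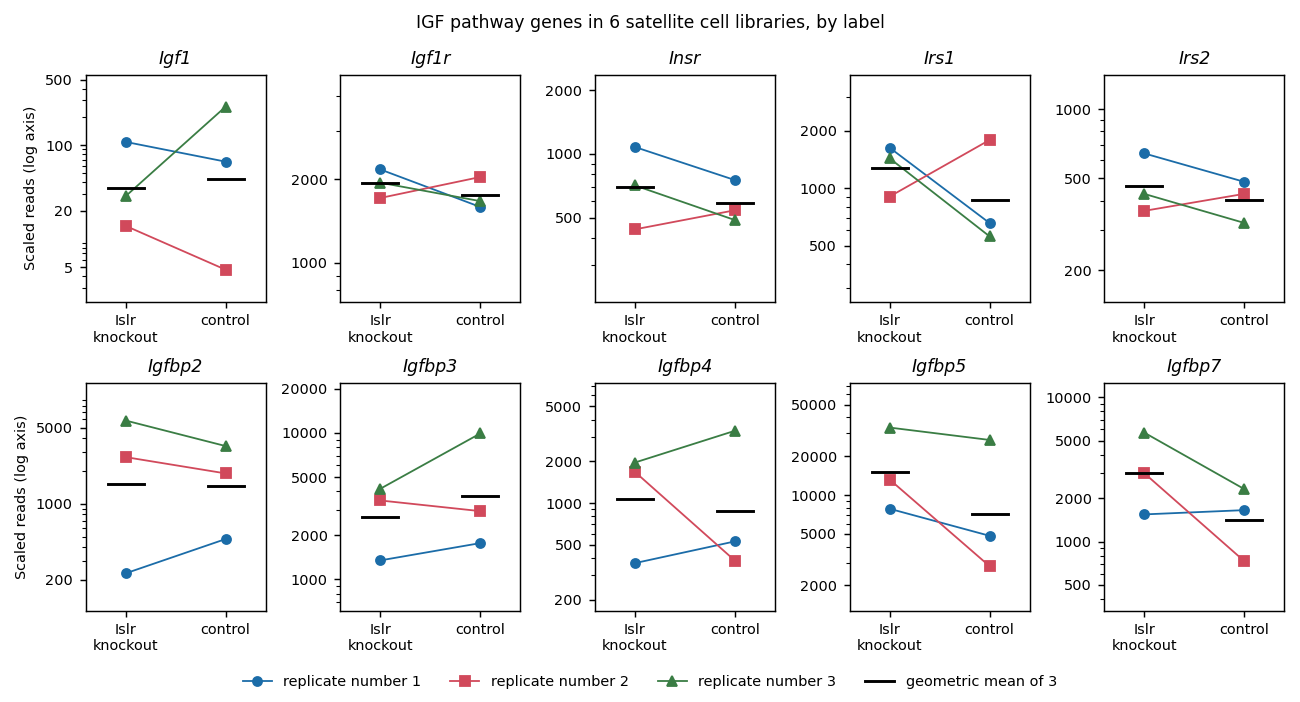
Scaled reads (log axis) of the 10 genes in each library labelled Islr knockout (left) and control (right); lines join libraries of the same replicate number and black bars are geometric means of 3 libraries. Igfbp5 falls along each of the 3 lines from left to right, for example 13190 in knockout 2 against 2812 in control 2, while the other 9 genes have lines in both directions.

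Igfbp5, whose protein binds IGFs and also matrix, had 7834, 13190 and 33256 scaled reads for libraries labelled Islr knockout 1, 2 and 3, against 4838, 2812 and 26666 in those labelled control 1, 2 and 3. It was highest in both libraries of number 3, and its level in control 3 exceeded that in knockout 1 and 2, so the groups overlapped. Within pairs it was 1.62, 4.69 and 1.25 times as high in knockout as in control. The means were 18094 ± 13401 for knockout and 11439 ± 13226 for control (SD, n = 3 each). Its log2 fold change of 1.08 ± 0.94 (SE) came with 95% bounds of -1.18 and 3.34 (limma adjusted p = 1.0), and intervals below are at the same level. With the replicate block the SE was 0.34 and the interval 0.28 to 1.88 (limma unadjusted p = 0.0142, adjusted p = 0.92). Without the library labelled control 2 the fold change was 0.41, without Islr knockout 3 it was 0.51, and without control 3 it was 2.03, all without a block.

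Igfbp7, a secreted protein related to the binding proteins that is abundant in vessels and binds IGFs only weakly, lies on chromosome 5 from 77349240 to 77408041 on the minus strand (ENSMUSG00000036256). Scaled reads numbered 1544, 2981 and 5701 in knockout 1, 2 and 3, against 1653, 730.7 and 2312 in control 1, 2 and 3. The libraries labelled Islr knockout 2 and 3 were above all control libraries, while knockout 1 was below control 1 and 3. Pair ratios of knockout over control were 0.934, 4.08 and 2.47. Its means were 3409 ± 2112 and 1565 ± 794 in knockout and control (SD, n = 3 each), and the log2 fold change of 1.08 ± 0.56 (SE) had an interval from -0.21 to 2.37 (limma adjusted p = 1.0, unadjusted p = 0.0907). With the replicate block the interval was 0.22 to 1.93 (limma adjusted p = 0.92). Leaving out both libraries of number 1, with the block, gave 1.66 and limma adjusted p = 0.0343, the 1 setting in which a member passed, when 93 genes passed in all. Number 1 was the pair in which Igfbp7 was lower in knockout. Leaving out number 2 with the block gave 0.60 (limma adjusted p = 0.632), and leaving out number 3 gave 0.96. Igfbp7 passed in neither. Without control 2 or Islr knockout 3, and no block, the fold change was 0.60 and 0.61. Its last bases overlap Polr2b on the other strand, and strand handling in the counting was not stated, so a part of its reads cannot be assigned with certainty; Polr2b itself ran from 2024 to 3706 scaled reads.

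Levels of markers of other cell types also differed between libraries, in orders that matched Igfbp5 and Igfbp7 in part. The fibro-adipogenic and fibroblast list (9 of 9 genes tested, 8 with a fold change above 0) summed to 3243, 5412 and 9201 scaled reads in knockout libraries, against 4135, 1301 and 7900 in control libraries. Most of this sum was 1 gene, Gsn, a widely expressed actin-severing protein. It had 2870, 3909 and 4703 in knockout libraries, against 3661, 934.6 and 6347 in control libraries, lower in knockout in pairs 1 and 3. Ly6a had 35.4, 89.5 and 663.7 in knockout libraries, against 32.2, 23.3 and 453.4 in control libraries. It was the 1 gene of the list higher in knockout in each pair (12.2% of all genes), and Dpt the 1 lower (12.1%). Cd34 and Dcn were lower in knockout in pair 1 and higher in pairs 2 and 3. Pdgfra, the defining gene of the list, stood at 83.3, 296.1 and 417.6 in knockout libraries, against 91.1, 85.1 and 165.3 in control libraries. Dpt and Pi16 were at or near 0, between 0 and 4.4. Endothelial markers (7 of 7 tested, 7 above 0) summed to 294, 1471 and 1275 in knockout libraries, against 293, 630 and 443 in control libraries. Of these 7 genes, 5 were higher in knockout in each pair (12.2% of all genes) and 0 lower (12.1%). Cdh5, lower in knockout in pair 1, had 110.7, 597.8 and 632.7 in knockout libraries, against 138.9, 226.1 and 161.1 in control libraries. Sums over the macrophage list (7 of 7 tested, 6 above 0) were 81.0, 459 and 860 in knockout libraries and 170, 140 and 291 in control libraries. Most of each sum was 1 gene, Lyz2, with 44.5, 361.7 and 603.5 in knockout libraries, against 104.4, 102.5 and 223.3 in control libraries. Ptprc, the defining gene of this list, had 1, 0 and 12 reads in knockout libraries and 0 in all 3 control libraries. Fold changes were above 0 for 4 of 4 Schwann, 3 of 5 pericyte and 2 of 4 tenocyte markers. Higher in knockout in each pair were 1 of 7 macrophage, 1 of 4 Schwann, 1 of 5 pericyte and 0 of 4 tenocyte markers. Among the control libraries, the endothelial sum was highest in control 2. The fibro-adipogenic and macrophage sums, Igfbp5 and Igfbp7 were each lowest there. The part of these cells in the result was not tested, and in bulk RNA fewer cells of a type and less RNA per cell cannot be told apart.

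Igfbp3, the main carrier of IGFs in serum, lies on chromosome 11 from 7206086 to 7213923 on the minus strand (ENSMUSG00000020427). It had 1349, 3462 and 4158 scaled reads in knockout libraries, against 1771, 2927 and 9925 in control libraries. Control 3 held the highest level and both libraries of number 1 the lowest. Its fold change of -0.47 ± 0.70 (log2, SE) had an interval from -2.11 to 1.17 (limma adjusted p = 1.0), and turned to 0.24 without control 3 and to 0.03 without Islr knockout 1.

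Igfbp4, known as a binding protein that PAPP-A cleaves, lies on chromosome 11 from 99041244 to 99054392 on the plus strand (ENSMUSG00000017493). It stood at 368.5, 1677 and 1959 scaled reads in knockout libraries, against 528.8, 383.4 and 3321 in control libraries. In the pair of number 2 it was 4.37 times as high in knockout as in control, while the ratios in numbers 1 and 3 were 0.697 and 0.59. Its log2 fold change of 0.28 ± 1.02 (SE; interval from -2.22 to 2.78, limma adjusted p = 1.0) changed sign in 7 of 20 alternative settings, so the data gave it no direction.

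Igfbp2, which carries an integrin-binding motif as well as its IGF site, was the member most tied to the replicate number. It had 229.3, 2692 and 5844 scaled reads in knockout libraries, against 474.4, 1905 and 3401 in control libraries, lowest in both libraries of number 1 and highest in both of number 3. The highest library was 25.5 times the lowest, while the group means of 2922 ± 2814 and 1927 ± 1463 for knockout and control (SD, n = 3 each) lay within the spread. The fold change of 0.08 (log2) had an interval from -3.57 to 3.72 without a block and from -0.70 to 0.85 with it (limma adjusted p = 1.0 and 0.988). It changed sign in 5 of 20 alternative settings, for example to -0.89 without Islr knockout 3 and to -0.73 without control 1. The pair of number 1 was lower in knockout (ratio 0.483), and the pairs of numbers 2 and 3 were higher (1.41 and 1.72).

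**Figure D2:**
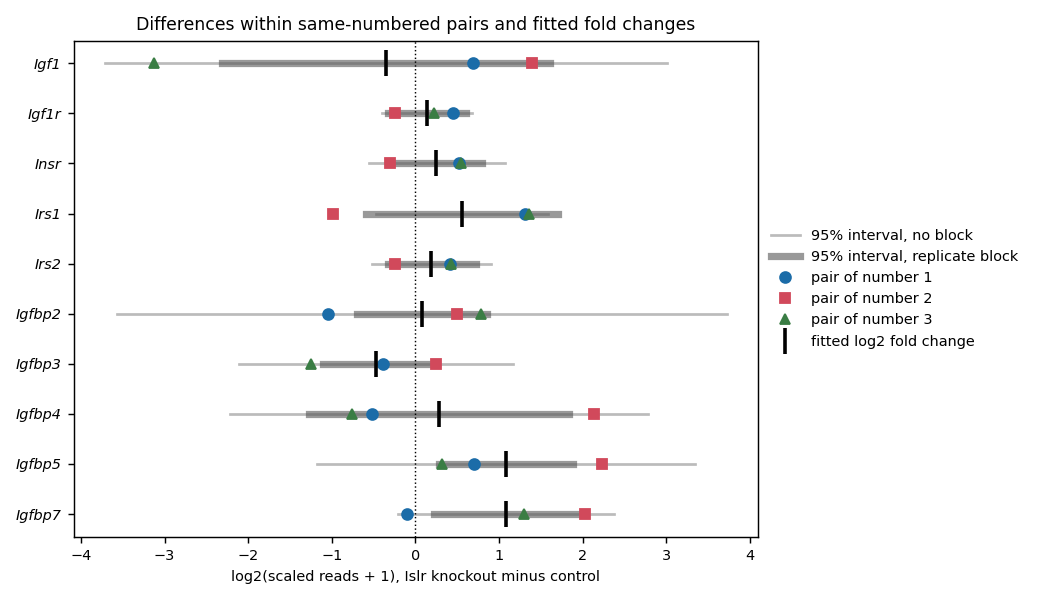
Difference in log2(scaled reads + 1), Islr knockout minus control, for the 3 same-numbered pairs (coloured marks), with the fitted log2 fold change (black tick) and its 95% intervals without (thin) and with (thick) the replicate block. The thick intervals lie above 0 for Igfbp5 (0.28 to 1.88) and Igfbp7 (0.22 to 1.93) and cover 0 for the other 8 genes.

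Set beside each other per length, the 5 binding protein genes together came to 182, 469 and 1009 FPKM in the libraries labelled Islr knockout 1, 2 and 3, against 183, 197 and 796 in those labelled control. The sums thus overlapped, with control 3 above knockout 1 and 2. Igfbp5 and Igfbp7 made up most of the sum in knockout 1 (38.1% and 37.6%), knockout 2 (25.5% and 28.9%) and knockout 3 (32.6% and 28.0%). They also did in control 1 (23.6% and 40.3%), but not in control 3 (31.9% and 13.8%). Igfbp2 gave 5.13% in knockout 1 and 10.6% in control 1. In control 2 the order was another, as Igfbp2 led with 37.9% and Igfbp3 followed with 31.5%, whereas Igfbp5 gave 12.2%. The share of Igfbp3 was 16.3%, 16.6% and 10.1% in knockout libraries, against 21.4%, 31.5% and 29.4% in control libraries. Every library labelled knockout was below every control library in this share, a pattern seen after the values were known and given without a test. In scaled reads, 2.11% of all genes were lower in every library labelled knockout than in any labelled control. No such count was made for shares. The groups overlapped in the shares of the other 4 genes and in the FPKM of Igfbp3 itself. A share depends on the other 4 genes: in number 2, Igfbp3 itself was higher in knockout (78.0 FPKM in knockout 2, against 61.8 in control 2), while Igfbp5 and Igfbp7 were 4.69 and 4.08 times as high in scaled reads. Igfbp4 gave between 2.60% and 6.22%.

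**Figure D3:**
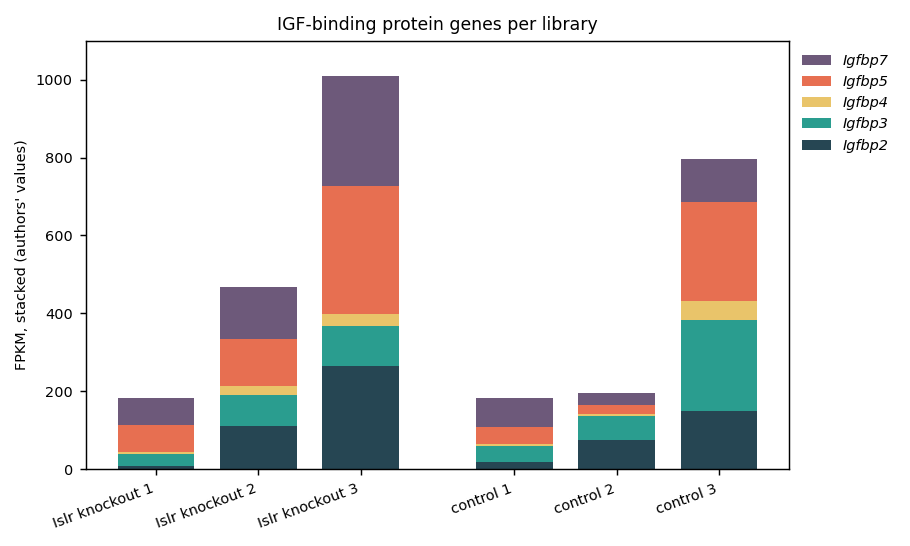
The authors' FPKM of the 5 binding protein genes, stacked, in each library, with libraries labelled Islr knockout on the left and control on the right. The sum runs from 182 FPKM in knockout 1 to 1009 in knockout 3. The segment of Igfbp3 is a smaller share of the bar in each library labelled knockout than in each labelled control. This was seen after the values were known and not tested, and the FPKM of Igfbp3 itself overlapped between the groups. In scaled reads, 2.11% of all genes were lower in every library labelled knockout than in any labelled control.

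Igf1r (ENSMUSG00000005533; chromosome 7, 67952827 to 68233668, plus strand), the main signalling receptor for both IGFs, was the steadiest member. It stood at 2174, 1714 and 1947 scaled reads in knockout libraries, against 1591, 2041 and 1670 in control libraries, a ratio of 1.37 between the highest and the lowest library. The fitted difference was 0.14 ± 0.24 (log2, SE), with an interval from -0.40 to 0.68 (limma adjusted p = 1.0). Insr (ENSMUSG00000005534; chromosome 8, 3122061 to 3279617, minus strand), the insulin receptor, had 1078, 440.1 and 709.7 scaled reads in knockout libraries, against 752.1, 541.9 and 486.7 in control libraries. It was highest in both libraries of number 1, and its log2 fold change of 0.25 ± 0.36 (SE) had an interval from -0.56 to 1.07 (limma adjusted p = 1.0); without Islr knockout 1 it was -0.06. Per length, Igf1r was above Insr in every library, by a ratio of 1.65, 3.19 and 2.25 in knockout libraries, against 1.73, 3.09 and 2.81 in control libraries.

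Irs2 (ENSMUSG00000038894, chromosome 8, 10984681 to 11008458, minus strand), a docking protein for PI3-kinase, had the profile nearest to that of Insr among the members. It had 642.3, 361.7 and 428.5 scaled reads in knockout libraries, against 483.3, 428.8 and 320.5 in control libraries. The centred log2 profiles of Insr and Irs2 over the 6 libraries differed by a root mean square of 0.18, the smallest value among the 45 pairs of members. Igf1r and Irs2 came next at 0.25. Genes of narrow range give small values by this measure, and this pair was not compared with other genes. Knockout minus control came to 0.19 ± 0.31 (log2, SE), with an interval from -0.52 to 0.90 (limma adjusted p = 1.0), and to -0.04 without Islr knockout 1. Irs1 (ENSMUSG00000055980; chromosome 1, 82233101 to 82291416, minus strand), the other main substrate in muscle, had 1629, 903.2 and 1433 scaled reads in knockout libraries, against 655.5, 1789 and 558.3 in control libraries. It was higher in knockout in the pairs of numbers 1 and 3 (2.49 and 2.57 times) and lower in that of number 2 (0.505). Its log2 fold change of 0.56 ± 0.45 (SE; interval from -0.47 to 1.59, limma adjusted p = 1.0) was 1.08 without the library labelled control 2, 1.34 without both libraries of number 2 in the block fit, and 0.24 without control 3.

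Igf1 (ENSMUSG00000020053; chromosome 10, 87858265 to 87937042, plus strand), the ligand, was low and spread most. It had 95, 15 and 34 reads in knockout libraries, against 60, 4 and 302 in control libraries, which is 108.4, 13.8 and 28.5 scaled reads in knockout libraries, against 66.7, 4.7 and 257.4 in control libraries. Both libraries of number 2 were lowest, and control 3 was highest. The pair ratios of knockout over control were 1.63, 2.97 and 0.111, and the log2 fold change was -0.35 ± 1.42 (SE) with an interval from -3.71 to 3.01 (limma adjusted p = 1.0). It turned to 0.89 without control 3 and to 0.30 without Islr knockout 2, and was -1.87 without control 2. Markers of differentiating muscle were also lowest in both libraries of number 2, with sums over 9 genes of 355155, 11373 and 35324 scaled reads in knockout libraries, against 376042, 2814 and 168803 in control libraries, and their part in its level was not tested. Igf2, the other ligand, named here for its role and outside the rule for naming genes, stood at 1234, 215.9 and 600.1 in knockout libraries, against 525.5, 297.2 and 874.5 in control libraries (log2 fold change 0.08 ± 0.66 (SE), limma adjusted p = 1.0).

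For 8 of 10 members the replicate number accounted for more of the variation than the labelled group did, Igf1r and Irs1 being the exceptions. The number has more levels than the group, so its share would be the larger on average with no effect at all. Medians over all genes tested had the same order, at 63.5% for the number and 7.8% for the group. In a split of the sum of squares of log2(scaled reads + 1), the number took 94.0% for Igfbp2, 82.5% for Igfbp3, 71.4% each for Insr and Igfbp5, 71.1% for Igfbp4, 69.6% for Igf1 and 66.6% for Irs2. These shares lay above the median of 63.5% over all genes tested. Among genes averaging 100 or more, as 9 of 10 members do, the median was 69.2%, and Irs2 lay below it. Igfbp7 (41.6%), Irs1 (10.3%) and Igf1r (2.0%) lay below both medians. The labelled group took the largest share for Igfbp7, 35.0%, and between 0.1% and 18.7% for the other members, beside a median of 7.8% over all genes. The spread itself was wide for Igf1 and the binding proteins. The range over 6 libraries was 5.51 for Igf1, 4.67 for Igfbp2, 3.56 for Igfbp5, 3.17 for Igfbp4, 2.96 for Igfbp7 and 2.88 for Igfbp3 on the log2 scale, and 0.45 to 1.68 for the receptors and substrates, beside a median of 1.62 over all genes and of 0.99 over the 10447 genes averaging 100 or more scaled reads. Of the receptors and substrates, whose means are all above 100, Igf1r (0.45) lay below 0.99, Irs2 (1.0) about at it, and Insr (1.29) and Irs1 (1.68) above it.

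**Figure D4:**
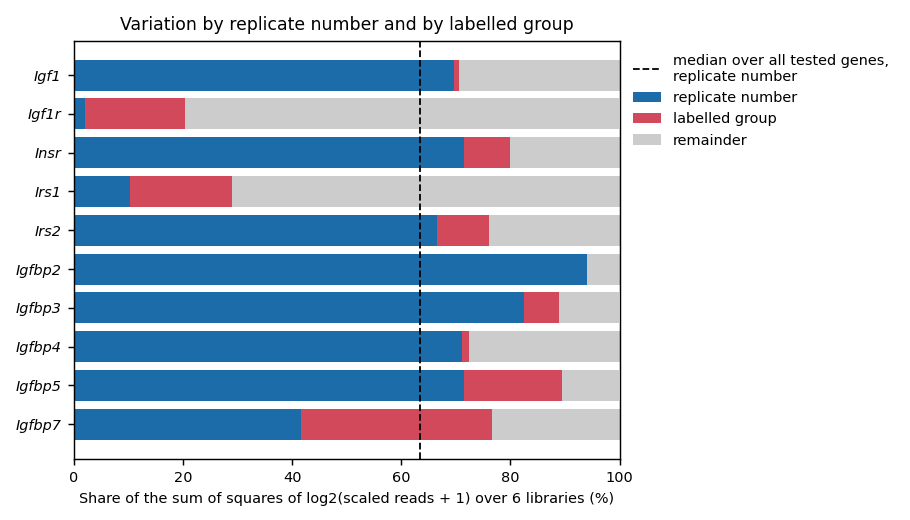
Share (%) of the sum of squares of log2(scaled reads + 1) over the 6 libraries that goes with the replicate number, the labelled group and the remainder, for each gene; the dashed line is the median share of the replicate number over all tested genes (63.5%). Igfbp2 is almost wholly in the replicate number (94.0%), while Igf1r has 2.0% there.

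Profiles most like those of the 3 widest members were sought among 10403 genes with a mean of at least 100 scaled reads, by the root mean square difference of centred log2 profiles over the 6 libraries. Closest to Igf1 were Tmem38a (0.47), Fndc5 (0.53), Fbxl22 (0.53), Serpinb1a (0.55) and Klhl40 (0.58). Tmem38a encodes a cation channel of the muscle calcium store and Klhl40 a protein that stabilises the sarcomere thin filament. Closest to Igfbp2 were Prl2c3 (0.43), Grb14 (0.47), Cpe (0.55), Gchfr (0.57) and Syt17 (0.63); Grb14 encodes an adaptor that inhibits the insulin receptor. Igfbp5 was matched more closely, by Osmr (0.20), Serpinb9 (0.24), Tap1 (0.26), Fgf7 (0.28) and Paqr7 (0.29). Osmr, a receptor of the interleukin-6 family, had 103, 171 and 449 scaled reads in knockout libraries, against 53.3, 48.9 and 392 in control libraries. The median difference from all candidates was 1.90, 1.68 and 1.35 for Igf1, Igfbp2 and Igfbp5, in that order. These likenesses are a description over 6 libraries that share 3 numbers.

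Other genes of the pathway were taken from lists by role. The remaining ligands, receptors and binding proteins were 9 genes, of which 4 were tested and 0 called. Igf2r, the receptor that clears IGF2, had 12413, 3394 and 5840 scaled reads in knockout libraries, against 7115, 3498 and 4457 in control libraries. Igfbp6, which prefers IGF2, had 232.7, 261.1 and 313.0 in knockout libraries, against 330.0, 66.4 and 328.1 in control libraries. Igfals, the partner of Igfbp3 in serum, reached at most 4.3, and Igfbp1 and Ins2 at most 0.9.

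Among proteases of the binding proteins and their inhibitors, 8 genes were tested and 0 called; 6 had a fold change above 0 and the median was 0.54 (log2). Pappa, the gene of the protease PAPP-A, had 42.2, 31.4 and 135.6 scaled reads in knockout libraries, against 27.8, 4.7 and 23.9 in control libraries, so that the groups did not overlap (2.65% of all genes in this direction). The fold change of 1.85 ± 0.81 (log2, SE) came with limma unadjusted p = 0.0487 and adjusted p = 1.0, and with the replicate block 0.00583 and 0.92. Pappa2, its close relative, was near 0 except in Islr knockout 3, at 3.4, 0.9 and 42.7 in knockout libraries, against 1.1, 0 and 1.7 in control libraries. Adam9, a membrane protease, had 2691, 1990 and 3424 in knockout libraries, against 1973, 1763 and 2012 in control libraries (log2 fold change 0.46 ± 0.27 (SE), limma adjusted p = 1.0). With the block, 4 of the 8 had an unadjusted p under 0.05, all higher in knockout, against 3.66% of all genes in that direction.

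Adaptors and negative regulators had a median of 0.06 over 21 tested genes, 12 of them above 0, with 0 called. Ptprf, a receptor phosphatase, had 1760, 489.0 and 762.5 scaled reads in knockout libraries, against 1038, 145.7 and 276.1 in control libraries (limma adjusted p = 1.0 and, with the block, 0.92). It was 1 of 5 genes among the 21 that were higher in knockout in each pair (12.2% of all genes), while 3 were lower in each (12.1%). Cblb, a ubiquitin ligase, stood at 1025, 1056 and 822.7 in knockout libraries, against 814.4, 833.2 and 471.3 in control libraries. Shc1, an adaptor towards Ras, stood at 2089, 2956 and 4635 in knockout libraries, against 1761, 2451 and 2432 in control libraries.

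The PI3K, Akt and mTOR list had a median of 0.06 over 40 tested genes, 25 of them above 0, with 0 called. Foxo4, a transcription factor that Akt holds out of the nucleus, was lower in every knockout library than in any control library (2.11% of all genes), at 859.1, 763.0 and 855.4 scaled reads in knockout libraries, against 911.0, 1119 and 2253 in control libraries. Its fold change was -0.68 ± 0.34 (log2, SE; limma adjusted p = 1.0 and, with the block, 0.92). Sgk1, a kinase related to Akt, had 870.5, 1470 and 1239 in knockout libraries, against 864.4, 875.2 and 758.5 in control libraries. Rps6, a ribosomal protein that S6 kinases phosphorylate, had 14139, 24255 and 13905 in knockout libraries, against 19557, 25723 and 26412 in control libraries; reads of this gene can be shared with pseudogenes. Foxo4 was the 1 gene of 40 with groups that did not overlap in the lower direction, and 1 gene, Tsc2, an mTOR inhibitor named after its values were seen, did not overlap in the higher direction (2.65% of all genes). Tsc2 had 1905, 1833 and 1856 in knockout libraries, against 1603, 1564 and 1458 in control libraries. The S6 kinase gene Rps6kb2 and the PI3-kinase subunit gene Pik3r1 had log2 fold changes of -0.50 ± 0.36 and 0.34 ± 0.26 (SE; limma adjusted p = 1.0 each). Genes known as FoxO targets had a median of -0.05 over 19 tested genes, 7 of them above 0, with 0 called. Txnip, an inhibitor of thioredoxin, had 159.7, 167.9 and 856.2 in knockout libraries, against 107.8, 28.0 and 567.6 in control libraries. Cdkn1b, a cell cycle inhibitor, had 798.6, 627.4 and 537.3 in knockout libraries, against 777.7, 917.1 and 946.0 in control libraries, and Cited2, a transcriptional co-regulator, 6652, 8604 and 9275 in knockout libraries, against 6853, 7219 and 4904 in control libraries.

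In the authors' deposited table, the log2 fold change was 1.12 for Igfbp7, with p = 0.0489 and adjusted p = 1.0, and this was the 1 member with p under 0.05 there. The authors' deposited table gave Igf1 -1.13, Igfbp3 -0.71, Igfbp5 0.66, Igfbp2 0.60 and Igfbp4 -0.08. These equal the log2 ratio of the group means, whereas the fold changes above are differences of mean log2 values, and for Igfbp4 the sign is another. The authors' deposited table of GO terms lists insulin-like growth factor binding, with 27 annotated genes, of which 4 were in their list and 0.35 expected (p = 0.00038, adjusted p = 0.0217). Those 4 genes were Ccn2, Itgb3, Igfbp7 and Esm1, so Igfbp7 was the 1 member among them. An adjusted p under 0.05 was held by 0 genes in the authors' deposited table, and how the list behind the GO terms was drawn was not stated. Of the 262 genes named with the GO terms, 223 were among 272 genes passing 2 cuts on the authors' values. These cuts were an unadjusted p under 0.05 and an absolute log2 fold change over 1.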

How the data were processed

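RNA sequencing values of 6 libraries (3 labelled Islr knockout, 3 labelled control) were read from the tables the authors deposited. The main table holds a signal per gene and library, gene counts divided by 1 size factor, and FPKM, as deposited by the authors; the submitters' processing notes list, without roles, DESeq2 1.16.1, edgeR 3.18.1, HISAT2 2.0.5, HTSeq and Trimmomatic. Per the file headers it also holds the authors' own comparison, as a log2 fold change with its p-value, raw and adjusted. The FPKM length equals the listed length within 5% for 14.9% of 14280 genes and is not explained there. A deposited raw count table covers 1031 features, and a deposited GO table gives gene numbers and p-values per term. Of the main table, 36 damaged lines were dropped, and 27366 features remained, 273 of them unannotated loci. Of 27093 Ensembl genes, 26923 had the coordinates of GENCODE on GRCm38. The column of control 1 has 2 digits of its label exchanged; the other 5 equal their labels. Values in 6 further per-sample columns were left out.

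From the smallest step of each column, 100.0% of the values were whole reads (tolerance 0.01), with equal counts for the 480 genes that the count table shares. The planned test for scaled values was limma 3.58.1 (trend, robust, two-sided, no block) on log2(scaled reads + 1). The filter was a mean of 1 or more, which 20344 genes passed, with Benjamini-Hochberg adjusted p under 0.05 as threshold; this scale understates changes of low genes. Beside it, 20 settings were run: edgeR 4.0.16 and DESeq2 1.42.0 on the recovered reads, other scaling, pseudocounts (0.5, 0.1) and filters, a replicate block, and fits without 1 library or 1 number. The numbers were taken to pair the libraries because every same-numbered pair correlated above 0.1 (0.689, 0.633 and 0.625). This comes from the data, as the labels do not say what the numbers mark. The sample codes in the labels also lie closest within same-numbered pairs, without a stated meaning. The limma, edgeR and DESeq2 fits, each with and without the block, were run on simulated counts, and the other settings were not. The spread of the simulated counts was set in advance and not taken from these libraries. Counts limit precision most for Igf1 (4 to 302 reads).

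Members and lists were chosen with earlier results of these data known. Named besides the members were Islr, Myog, Myh3 and Ckm, the 3 genes of each pathway list with the smallest p (5 for PI3K, Akt and mTOR), and the 5 profiles most like those of the 3 widest members. Of the cell type lists, sums and defining markers are given in place of the 3 genes of smallest p. Polr2b, Igf2, Tsc2, Gsn, Ly6a, Cd34, Dcn, Lyz2 and the genes of the GO term fall outside this rule.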

Additional observations from a re-analysis of the deposited data

How the results depend on the processing

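Counts of called genes stayed at 0 in the other settings without a left-out library except DESeq2 with the replicate block, which called 13 genes and 0 members. Over the fits without 1 library or 1 number the count ran from 0 to 93 genes and from 0 to 1 members; both upper values came from leaving out number 1 with the block, where Igfbp7 passed. In these fits the log2 fold change ran from -1.87 to 1.04 for Igf1, -0.01 to 0.34 for Igf1r, -0.06 to 0.58 for Insr, -0.04 to 0.41 for Irs2, -0.89 to 1.45 for Igfbp2, -1.0 to 0.24 for Igfbp3 and -0.64 to 1.24 for Igfbp4, with the sign turned in at least 1 of them. Among them, Igf1 had 0.89 without control 3, Irs2 0.37 without Islr knockout 2, Igfbp4 -0.31 without control 2, and Igfbp2 -0.13 and -0.27 without number 2 and number 3 in the replicate block. It kept its sign for Irs1 (0.16 to 1.34), Igfbp5 (0.41 to 2.03) and Igfbp7 (0.60 to 1.66). The fold change of Igfbp4 was -0.08 in edgeR and -0.08 in DESeq2. The 276 genes at an unadjusted p under 0.05 became 831 without Islr knockout 1, 520 without control 2, 91 without Islr knockout 3 and 120 with a mean of at least 10. The cause of these changes was not tested. Apart from number 1 being left out, the replicate block changed no call of a member. Groups of 3 libraries limit what can be called here.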
